A study of Mus musculus with 10 samples.

Results

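The coagulation and complement genes of the liver were examined in livers of tumour-bearing mice with and without cachexia. The group holds 42 genes listed by name, 24 placed with coagulation and fibrinolysis and 18 with complement, with no measured value in the rule. The 24 include 3 listed as adhesive and other plasma glycoproteins, Vtn, Hrg and Serpinf1. Of the 42 genes, 41 were found among the 43629 genes of the count table by their GENCODE M21 symbols, and all 41 were among the 14143 genes with enough counts to be tested. Klkb1, which encodes plasma prekallikrein, was not analysed here because its GENCODE M21 identifier matched no row.

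The livers came from 5 NCACS and 5 CACS male KL mice. KL mice, a Cre-inducible model of lung cancer, carry Lkb1 flox/flox, were backcrossed to FVB, and received Ad5CMV-Cre, an adenovirus that expresses Cre from the CMV promoter, through the nose as adults of 12 to 20 weeks. CACS, for cancer anorexia-cachexia syndrome, was the study's name for mice that had lost over 15% of their peak body weight, and NCACS for the rest. Both groups therefore carried the alleles and the virus, and no tumour-free liver was analysed here. The labelled weight change ran from -3 to -14% in NCACS mice and from -29 to -33% in CACS mice. The labels number the mice 11 to 15 (NCACS) and 16 to 20 (CACS), which are the numbers used below.

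Hepatocytes make most of the proteins of both cascades and secrete them into the blood. In coagulation, proteases activate one another in turn until thrombin cuts fibrinogen into fibrin, and anticoagulants and plasmin limit and dissolve the clot. In complement, the classical, lectin and alternative pathways meet at C3 and end in the membrane attack complex of C5b, C6, C7, C8 and C9. Fibrinogen and C3 are acute-phase proteins, and the fibrinogen genes respond to interleukin-6 and STAT3 in the liver. C5ar1 is the exception in the group, since it encodes a receptor of myeloid cells and not a plasma protein.

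The sequences just upstream of the fibrinogen genes, F11 and C9 are shown because the 3 fibrinogen chains, the most abundant clotting genes per kilobase of exon, rank high or low together in several livers, and because F11 and C9 had the smallest adjusted p-values of the clotting and complement arms. The sequences are RefSeq's, of build GRCm38.p6. They cover at most 250 bases before the RefSeq start, read 5′ to 3′ on the strand of the gene, and stop where the GENCODE gene begins. Capitals mark matches, on either strand, to 5 short motifs: GTTAAT (an HNF1 core), CAAAGT (an HNF4 core), TTGCNNAA (C/EBP type), CTGGGAA (a STAT3-type site of acute-phase genes) and TTCNNNGAA (a STAT palindrome, with which CTGGGAA can overlap).
Fga (chr3:83025903-83026075, + strand): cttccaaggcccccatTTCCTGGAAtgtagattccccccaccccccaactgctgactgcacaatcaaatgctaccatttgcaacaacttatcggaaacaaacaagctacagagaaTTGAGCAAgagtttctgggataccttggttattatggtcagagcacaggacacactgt
Fgb (chr3:83049864-83050113, - strand): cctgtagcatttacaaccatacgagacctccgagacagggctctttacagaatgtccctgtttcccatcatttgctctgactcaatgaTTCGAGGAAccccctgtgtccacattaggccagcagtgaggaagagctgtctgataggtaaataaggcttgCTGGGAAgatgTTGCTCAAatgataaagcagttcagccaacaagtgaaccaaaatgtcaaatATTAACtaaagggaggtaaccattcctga
Fgg (chr3:83007474-83007723, + strand): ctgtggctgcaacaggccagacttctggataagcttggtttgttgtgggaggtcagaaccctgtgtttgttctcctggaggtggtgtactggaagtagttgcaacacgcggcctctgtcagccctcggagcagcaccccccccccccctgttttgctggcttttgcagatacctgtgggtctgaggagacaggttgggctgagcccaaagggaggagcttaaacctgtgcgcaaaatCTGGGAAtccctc
F11 (chr8:45262032-45262281, - strand): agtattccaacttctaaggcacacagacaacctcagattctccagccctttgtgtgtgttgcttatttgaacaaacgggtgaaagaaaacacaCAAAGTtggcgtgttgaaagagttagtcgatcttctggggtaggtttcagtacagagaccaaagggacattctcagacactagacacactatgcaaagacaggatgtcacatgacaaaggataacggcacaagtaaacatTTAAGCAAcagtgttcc
C9 (chr15:6445096-6445326, + strand): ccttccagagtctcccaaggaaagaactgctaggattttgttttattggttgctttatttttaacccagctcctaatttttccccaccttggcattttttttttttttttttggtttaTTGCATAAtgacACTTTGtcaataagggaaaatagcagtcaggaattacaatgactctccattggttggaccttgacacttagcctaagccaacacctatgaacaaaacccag

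Fgb held 4 of the 5 motifs and Fgg held CTGGGAA only. Fga held TTCNNNGAA, TTGCNNAA and a match to GTTAAT in the 77 bases that the GENCODE gene covers and that are not printed. F11 and C9 each held 1 match to TTGCNNAA and 1 to CAAAGT. A RefSeq promoter was found for 34 of the 42 genes. In the full 250 bases, GTTAAT was present in 9 of the 34 (26.5%, against 6.52% of 27025 promoters of all genes), and TTGCNNAA also in 9 (26.5%, against 9.55%). CAAAGT was present in 7 (20.6%, against 12.5%), TTCNNNGAA in 6 (17.6%, against 7.18%) and CTGGGAA in 5 (14.7%, against 9.08%). The matches describe letters in these windows and were not set against the measurements.

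Most of the 41 genes differed little between CACS and NCACS livers. Levels are given as normalized CPM, that is a gene's counts as a share of the library total after scaling by TMM factors, and differences as log2 fold changes of CACS against NCACS from edgeR's quasi-likelihood test. A Benjamini-Hochberg adjusted p-value under 0.05 over all 14143 genes was the threshold. By this test 1 gene, the clotting factor F11, was lower in CACS livers (271 of all genes tested, 1.92%, were called lower) and 0 were higher (267 of all genes tested, 1.89%, were called higher). At an unadjusted p under 0.05 there were 5 of the 41 genes (12.2%), all of them lower in CACS livers, against 21.6% of all genes tested. These were F11, C9, C8g, C4bp and Serpind1. The median log2 fold change was -0.04 over the 41 genes and -0.0053 over all genes tested, with 25 genes (61.0%) below 0 against 50.6% of all genes. The median of the 41 genes was above 0, between 0.0277 and 0.0334, when NCACS mouse 13, NCACS mouse 15 or CACS mouse 17 was left out.

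**Figure D1:**
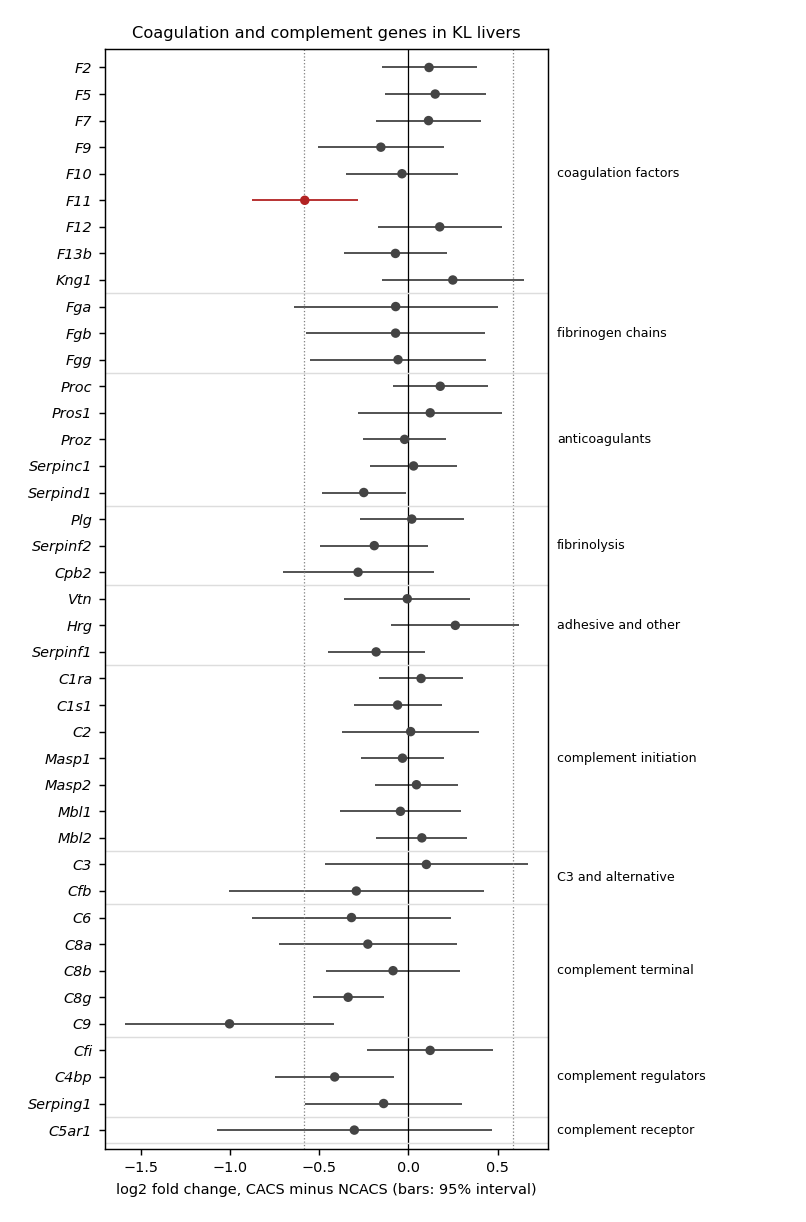
Log2 fold change of the 41 tested genes (x axis, CACS minus NCACS; bars are 95% intervals from edgeR's quasi-likelihood fit; dotted lines mark a change of 1.5-fold), in order of role. F11, in red, is the one gene with an adjusted p under 0.05, and 29 of the 41 intervals lie between the dotted lines.

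The precision of these differences was high for many of the genes. The 95% interval lay within 1.5-fold of no change for 29 of the 41 genes (70.7%, against 48.8% of all genes tested) and within 2-fold for 38. The exceptions at 2-fold were Cfb, C9 and C5ar1. The SD of log2 CPM within groups had a median of 0.237 over the 41 genes and 0.267 over all genes tested. It was lowest for C8g (0.0784) and Serpinc1 (0.0935), the gene of antithrombin, and highest for Cfb (0.641) and C5ar1 (0.608). Replicates were separate mice. In bulk liver, fewer cells of a type and less RNA per cell cannot be told apart.

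Together the 41 genes made up 6.07 ± 1.11% of all counts in the NCACS group and 6.09 ± 0.709% in the CACS group (SD, n = 5 in each). The range was 4.76 to 7.62% in NCACS livers and 4.98 to 6.69% in CACS livers, so the groups overlapped almost completely. The fibrinogen chains accounted for 1.79 ± 0.547% and 1.73 ± 0.353% and C3 for 1.34 ± 0.469% and 1.45 ± 0.30% (SD, n = 5 in each group, NCACS first). Only Alb and mt-Co1 had more counts than C3 over the 10 libraries. Total counts ran from 31945328 to 38306888 in NCACS and from 31459179 to 40746178 in CACS livers, and each of 6 hepatocyte markers had at least 17656 counts in every library.

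**Figure D2:**
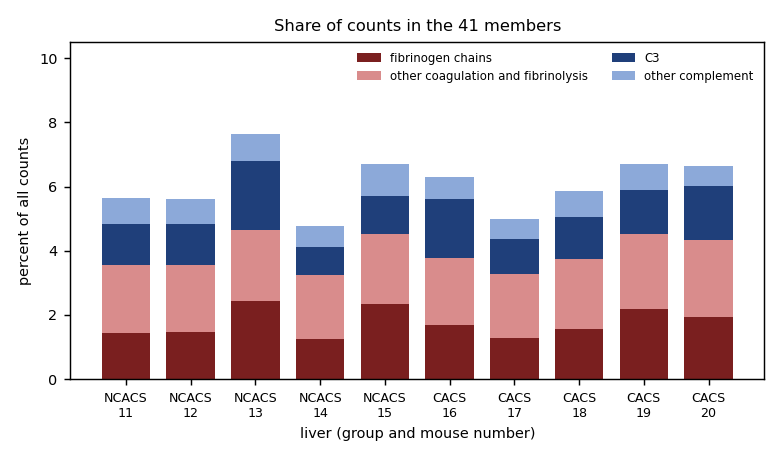
Percent of all counts (y axis) in each liver (x axis, group and mouse number), stacked as fibrinogen chains, other coagulation and fibrinolysis genes, C3, and other complement genes. NCACS mouse 13 is highest at 7.62% and NCACS mouse 14 lowest at 4.76%, and the CACS livers lie between these.

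Livers of one group differed from each other in many of these genes at once. NCACS mouse 15 had the highest level of 13 of the 41 genes (31.7%, against 14.6% of all genes tested) and NCACS mouse 13 of 10 (24.4%, against 14.1%). CACS mouse 17 had the lowest level of 15 genes (36.6%, against 8.79% of all genes tested) and NCACS mouse 14 of 9 (22%, against 9.86%). Mice 15 and 13 had the largest weight losses of the NCACS mice, with changes of -14 and -11%, and mouse 14 the smallest, with -3%. Of the 6 hepatocyte markers, Alb was lowest of the 10 livers in mice 15 and 13, at 45741 and 52622 CPM against 76730.3 to 107315 CPM in the other 8. The other markers did not share this order. Apoa1 was lowest in mouse 14, at 5856 CPM, and Tat in CACS mouse 18, at 576 CPM. Ttr and Cps1 were lowest in mouse 15, at 5602 and 1630 CPM, but mouse 13 was at 7248 and 2656 CPM. Hpd was lowest in mouse 13, at 1616 CPM, but mouse 15 was at 1981 CPM. The part of weight loss or of Alb in the levels of the 41 genes was not tested.

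**Figure D3:**
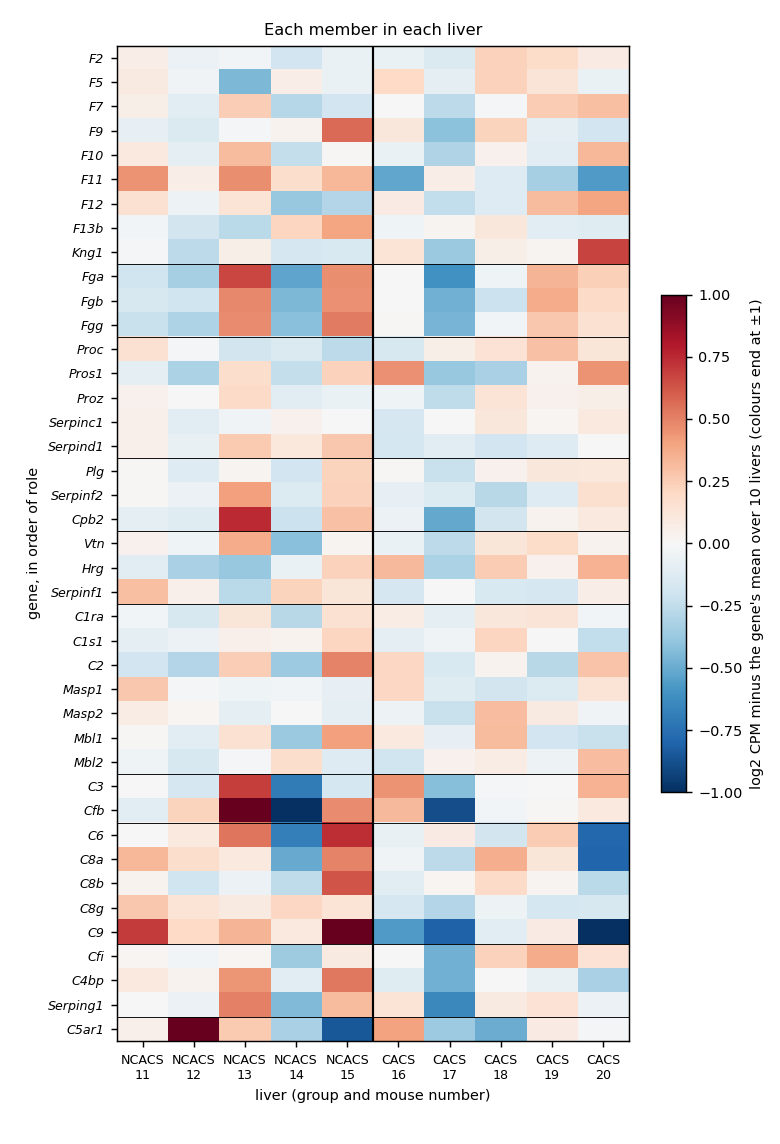
Log2 CPM of each gene (rows, in order of role) in each liver (columns) minus the gene's mean over the 10 livers, with colours ending at 1 log2 unit either way. NCACS mice 13 and 15 are red and NCACS mouse 14 and CACS mouse 17 blue over the fibrinogen chains, while the rows of F11, C8g and C9 are red in NCACS and mostly blue in CACS livers.

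Among the coagulation factors, F11 (ENSMUSG00000031645, chr8:45241174-45262031 of GRCm38, - strand) encodes factor XI, the protease of the intrinsic pathway that activates factor IX. Its level was 148, 113, 149, 122 and 136 CPM in NCACS mice 11 to 15 and 75.3, 113, 99.1, 86.1 and 73.1 CPM in CACS mice 16 to 20. The groups met at a single point, where CACS mouse 17 was just above NCACS mouse 12, and the other 4 CACS livers were below every NCACS liver. The mean was 134 ± 15.8 CPM for NCACS and 89.4 ± 16.9 CPM for CACS (SD, n = 5 in each). The log2 fold change was -0.58 (SE 0.136, 95% interval -0.88 to -0.28, edgeR adjusted p = 0.0397), and the two-sided exact permutation test over 252 assignments gave p = 0.0159. The call was lost when NCACS mouse 11, 13, 14 or 15 or CACS mouse 16, 18, 19 or 20 was left out (adjusted p up to 0.0867) and when libraries were scaled by their raw totals (adjusted p = 0.0557), while DESeq2 gave an adjusted p of 0.00247.

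None of the other 8 measured coagulation factors passed the threshold, and their log2 fold changes ran from -0.15 for F9 to 0.25 for Kng1. F2, which encodes prothrombin, averaged 2059 ± 133 CPM (NCACS) and 2232 ± 244 CPM (CACS; SD, n = 5 in each). F12, the gene of factor XII, which activates factor XI, had a log2 fold change of 0.18 (95% interval -0.17 to 0.52). F9, which encodes the substrate of factor XI, had one of -0.15 (95% interval -0.51 to 0.20). F7, F10 and Proz stand side by side on chromosome 8, 1.5 and 4.24 kb apart, and had log2 fold changes of 0.11, -0.04 and -0.02. Of the remaining factors, F5 had 0.15 and F13b, the carrier subunit of factor XIII, -0.07. Kng1 encodes high molecular weight kininogen, and part of its reads could belong to the closely related Kng2.

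The fibrinogen chains varied widely within each group, and the groups did not differ beyond that spread. Fga, Fgb and Fgg lie within a short stretch of chromosome 3 (83007724 to 83049863 of GRCm38), with gaps of 11 and 6.51 kb between them. Fgb, the beta chain (ENSMUSG00000033831), was at 5688, 5528, 8862, 4654 and 8689 CPM in NCACS mice 11 to 15. It was at 6332, 4548, 5459.6, 8207 and 7256 CPM in CACS mice 16 to 20. NCACS mice 13 and 15 and CACS mouse 19 were the 3 highest livers, NCACS mouse 14 and CACS mouse 17 the 2 lowest, and the groups overlapped over most of their range.

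Fgb had a log2 fold change of -0.07 (SE 0.229, 95% interval -0.57 to 0.43, edgeR adjusted p = 0.892). Fga, the alpha chain, and Fgg, the gamma chain, had log2 fold changes of -0.07 and -0.06, with adjusted p-values of 0.908 and 0.913 from edgeR. NCACS mice 13 and 15 were the 2 highest livers for these chains too, at 10395 and 9024 CPM of Fga and 5838 and 6039 CPM of Fgg. Per kilobase of exon, Fga, Fgg and Fgb were at 2263, 2064 and 1712 CPM over the 10 livers, the highest levels in the group after C3 at 2736 CPM per kilobase. Without NCACS mouse 13 the log2 fold changes of Fga and Fgb were 0.12 and 0.05, so the sign rested on single livers.

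Of the anticoagulants, Serpind1 (ENSMUSG00000022766, chr16:17331371-17343575 of GRCm38, + strand), the gene of heparin cofactor II, which inhibits thrombin, had the smallest p. It was at 738, 676, 853, 769 and 862 CPM in NCACS mice 11 to 15 and at 633, 660.5, 623, 651 and 711 CPM in CACS mice 16 to 20. Only NCACS mouse 12 reached into the CACS range, being below CACS mouse 20. Its log2 fold change was -0.25 (SE 0.107, 95% interval -0.48 to -0.02), which did not pass the threshold (edgeR adjusted p = 0.203, two-sided exact permutation p = 0.0159). Serpinc1, the gene of antithrombin, had a log2 fold change of 0.03 (95% interval -0.22 to 0.28) and averaged 2221 ± 103 CPM (NCACS) and 2267 ± 173 CPM (CACS; SD, n = 5 in each). Proc and Pros1, which encode protein C and its cofactor protein S, had 0.18 and 0.12, and none of these 3 passed the threshold.

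In fibrinolysis, Plg, the gene of plasminogen, averaged 3514 ± 395 CPM (NCACS) and 3562 ± 325 CPM (CACS; SD, n = 5 in each; log2 fold change 0.02, 95% interval -0.27 to 0.31). Serpinf2, which encodes the plasmin inhibitor alpha2-antiplasmin, had a log2 fold change of -0.19 (edgeR adjusted p = 0.457). Cpb2 (ENSMUSG00000021999, chr14:75242287-75283555 of GRCm38, + strand), whose product TAFI protects fibrin from plasmin, was at 413, 404, 737, 378 and 536 CPM in NCACS mice 11 to 15. It was at 420.3, 307, 386, 448 and 468 CPM in CACS mice 16 to 20. NCACS mice 13 and 15 were above every CACS liver and CACS mouse 17 was the lowest, and the other livers of both groups were intermixed. Its log2 fold change was -0.28 (SE 0.193, edgeR adjusted p = 0.426) and moved to -0.09 without NCACS mouse 13.

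Among the other plasma glycoproteins, Hrg (ENSMUSG00000022877, chr16:22951072-22961656 of GRCm38, + strand), the gene of histidine-rich glycoprotein, which binds plasminogen and heparin, was at 1135, 981, 942, 1169.6 and 1443 CPM in NCACS mice 11 to 15. It was at 1533, 988, 1461, 1265 and 1559.5 CPM in CACS mice 16 to 20. CACS mice 16, 18 and 20 were above every NCACS liver, and CACS mouse 17 lay among the lowest. The log2 fold change of 0.26 (SE 0.164, 95% interval -0.10 to 0.62) was the highest of the 41 genes and did not pass the threshold (edgeR adjusted p = 0.377). Vtn, the gene of vitronectin, had a log2 fold change of -0.01 and Serpinf1, the gene of PEDF, of -0.18 (edgeR adjusted p = 0.987 and 0.427).

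In the initiation of complement, none of 7 genes passed the threshold, and all 7 had 95% intervals within 1.5-fold. C1ra (ENSMUSG00000055172, chr6:124512405-124523443 of GRCm38, + strand), a protease of the C1 complex, had the smallest p. It was at 262, 239, 289, 220.0 and 295 CPM in NCACS mice 11 to 15 and at 281, 249, 289, 291 and 262 CPM in CACS mice 16 to 20. The CACS range lay inside the NCACS range, and the log2 fold change was 0.07 (SE 0.107, 95% interval -0.16 to 0.31, edgeR adjusted p = 0.750). C1s1, its partner protease, had a log2 fold change of -0.06. The lectin pathway genes Mbl1 and Mbl2, which encode mannose-binding lectins, had -0.04 and 0.08, and their proteases Masp1 and Masp2 had -0.03 and 0.05. C2, the protease of the C3 convertase of these pathways, had 0.01.

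C3 (ENSMUSG00000024164, chr17:57203970-57228136 of GRCm38, - strand) had the highest level of the group per kilobase of exon. It was at 13529, 12099, 21917, 8358 and 11981 CPM in NCACS mice 11 to 15 and at 18533, 10114, 13379.7, 13549 and 17241 CPM in CACS mice 16 to 20. NCACS mouse 13 was highest and NCACS mouse 14 lowest, with the CACS livers between them. C3 had a log2 fold change of 0.10 (SE 0.261, 95% interval -0.47 to 0.67, edgeR adjusted p = 0.863), or of 0.34 without NCACS mouse 13. Cfb (ENSMUSG00000090231, chr17:34856374-34862518 of GRCm38, - strand), the protease factor B of the alternative pathway, was at 8.99, 11.3, 19.3, 4.52 and 13.4 CPM in NCACS mice 11 to 15. It was at 12.1, 5.25, 9.50, 9.75 and 10.4 CPM in CACS mice 16 to 20.

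The lowest and highest Cfb values were both in NCACS livers, and its log2 fold change was -0.29 (SE 0.326, edgeR adjusted p = 0.651). The level of Cfb may cover only part of the gene. The annotated readthrough gene Gm20547 holds 79.5% of the exon bases of Cfb and 42.8% of those of C2 on the same strand and had 0 counts in every liver. HTSeq leaves out reads that fall on more than one gene by default, but the annotation and settings behind these counts are not given, so the levels of both genes are uncertain.

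Of the membrane attack complex genes in the group, 5 of 5 had log2 fold changes below 0 (50.6% of all genes tested), with a median of -0.32 (-0.0053 over all genes tested). The median was -0.15, with 4 of 5 below 0, without NCACS mouse 15 and -0.19 without CACS mouse 20. The complex also takes C5, encoded by Hc, and C7, which are not among the 42 genes. Hc and C7 had log2 fold changes of -0.06 and 0.27 (edgeR adjusted p = 0.890 and 0.494). These are levels of RNA, and whether the livers made the proteins was not measured. With Hc and C7 included, 6 of 7 genes were below 0 at a median of -0.23. This also rested on single livers, with 4 of 7 below 0 at a median of -0.12 without NCACS mouse 15. Without CACS mouse 17 it was 5 of 7 at -0.18, and without CACS mouse 20 the median was -0.09. C9 (ENSMUSG00000022149, chr15:6445327-6498751 of GRCm38, + strand), which forms the wall of the pore, was at 1112, 788, 868, 734 and 1564 CPM in NCACS mice 11 to 15. It was at 464, 391, 638, 726 and 310.4 CPM in CACS mice 16 to 20. The groups did not overlap, but the highest CACS liver, mouse 19, was only just below the lowest NCACS liver, mouse 14. The mean was 1013 ± 340.1 CPM for NCACS and 506 ± 173 CPM for CACS (SD, n = 5 in each). With -1.002, its log2 fold change was the most negative of the 41 genes (SE 0.268, 95% interval -1.59 to -0.42) and missed the threshold at an edgeR adjusted p of 0.0598, while DESeq2 gave 0.0039. The two-sided exact permutation p was 0.00794, the smallest that 5 against 5 livers can give.

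C8g (ENSMUSG00000015083, chr2:25498651-25501719 of GRCm38, - strand), the lipocalin-like gamma chain of C8, was at 484, 441, 426, 464 and 442 CPM in NCACS mice 11 to 15. It was at 356, 328, 387, 356 and 359.8 CPM in CACS mice 16 to 20. The groups did not overlap, and both had a narrow spread, with means of 451 ± 22.5 CPM and 357 ± 20.97 CPM (SD, n = 5 in each). C8g had a log2 fold change of -0.34 (SE 0.091, 95% interval -0.54 to -0.14), with an adjusted p of 0.0614 from edgeR and of 0.000178 from DESeq2 and a two-sided exact permutation p of 0.00794. C9 and C8g were the 2 of the 41 genes whose groups did not overlap, both lower in CACS livers (442 of all genes tested, 3.13%, were lower without overlap), and 0 of the 41 were higher without overlap (558 of all genes tested, 3.95%).

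C6, C8a and C8b, the remaining genes of the complex in the group, had log2 fold changes of -0.32, -0.23 and -0.09 and adjusted p-values of 0.504, 0.603 and 0.818 from edgeR. C6 ran from 193 to 516 CPM in NCACS and from 179 to 369 CPM in CACS livers, with the lowest value of each group in NCACS mouse 14 and CACS mouse 20. C8a and C8b, the alpha and beta chains of C8, lie 11.1 kb apart on chromosome 4. Without NCACS mouse 15 the log2 fold change of C8b was 0.10 and that of C9 was -0.79.

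**Figure D4:**
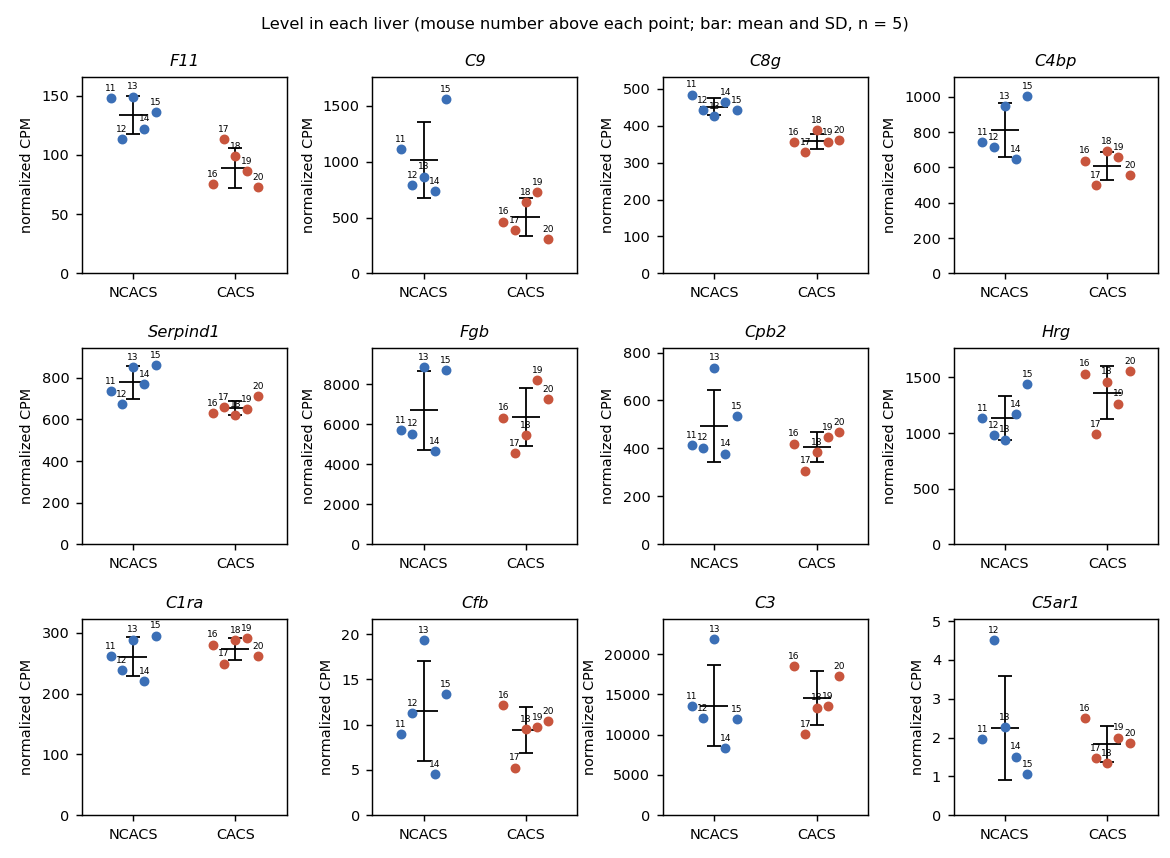
Normalized CPM (y axis, from 0) in each NCACS (blue) and CACS (red) liver of 12 genes, with mouse numbers above the points and bars at the mean and SD of 5 livers. The groups of C9 and C8g do not overlap, those of F11 meet at 113 CPM, and those of the other genes share part of their range.

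Of the complement regulators, C4bp (ENSMUSG00000026405, chr1:130634773-130661632 of GRCm38, - strand), the C4b-binding protein that limits the classical pathway convertase, was at 744, 714, 946, 648 and 1003 CPM in NCACS mice 11 to 15. It was at 638, 498, 694, 660.0 and 556 CPM in CACS mice 16 to 20. NCACS mice 13 and 15 were the highest, and NCACS mouse 14 lay within the CACS range. The log2 fold change of -0.41 (SE 0.152, 95% interval -0.75 to -0.08) did not pass the threshold (edgeR adjusted p = 0.142, two-sided exact permutation p = 0.0238). Cfi, which encodes the protease factor I that cuts C3b and C4b, had a log2 fold change of 0.12 and Serping1, the gene of C1 inhibitor, of -0.14 (edgeR adjusted p = 0.713 and 0.744).

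C5ar1 (ENSMUSG00000049130, chr7:16246743-16259540 of GRCm38, - strand), the receptor of C5a, had the lowest level of the group per kilobase of exon (0.796 CPM). It was at 1.96, 4.51, 2.26, 1.51 and 1.05 CPM in NCACS mice 11 to 15 and at 2.50, 1.47, 1.34, 2.0 and 1.86 CPM in CACS mice 16 to 20. NCACS mouse 12 stood above the other 9, and the CACS values lay inside the NCACS range. The log2 fold change was -0.30 (SE 0.352, edgeR adjusted p = 0.667) and 0.12 without NCACS mouse 12. Kupffer cells and other myeloid cells carry this receptor. All 6 Kupffer cell markers had log2 fold changes below 0, with 1 called lower (Cd5l, -0.90, edgeR adjusted p = 0.0374). At an unadjusted edgeR p under 0.05 there were 4 of these 6 (66.7%, against 21.6% of all genes tested). Their summed level ran from 149.9 to 251 CPM in NCACS and from 87.3 to 175 CPM in CACS livers. The 4 tested neutrophil and monocyte markers had log2 fold changes from -1.79 to -1.20 and were not called, with 3 of 4 (75%) at an unadjusted edgeR p under 0.05. The summed level of all 6 neutrophil and monocyte markers was 18.05 CPM in NCACS mouse 12, 20.1 CPM in NCACS mouse 13 and 2.31 to 6.32 CPM in the other 8 livers. The markers with the least counts, Ly6g and Retnlg, were below the filter. The part of these cells in the level of C5ar1 was not tested.

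The ratio of 2 genes within a liver does not depend on how libraries are scaled, and 9 pairs of subunits, partner enzymes or neighbours were compared in this way. In none of the 9 pairs did the log2 ratio differ between groups after Benjamini-Hochberg adjustment (adjusted p of 0.50 or more by two-sided exact permutation tests), though a single pair with complete separation could reach no less than 0.0714. None, 0 of 9, had an unadjusted p under 0.05. The log2 ratio of Fga to Fgb was 0.03 ± 0.121 in NCACS and 0.06 ± 0.109 in CACS livers (SD, n = 5 in each), while the highest liver was 2.41 times the lowest for Fga and 1.95 times for Fgb. The smallest p was that of F7 to F10, whose log2 ratio was -2.21 ± 0.0743 in NCACS and -2.06 ± 0.168 in CACS livers (SD, n = 5 in each; exact permutation p = 0.0635, adjusted p = 0.50). C8g to C8b had the most negative difference, -0.28, with log2 ratios of 0.02 ± 0.369 and -0.26 ± 0.171 (SD, n = 5 in each; exact permutation p = 0.159, adjusted p = 0.50).

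**Figure D5:**
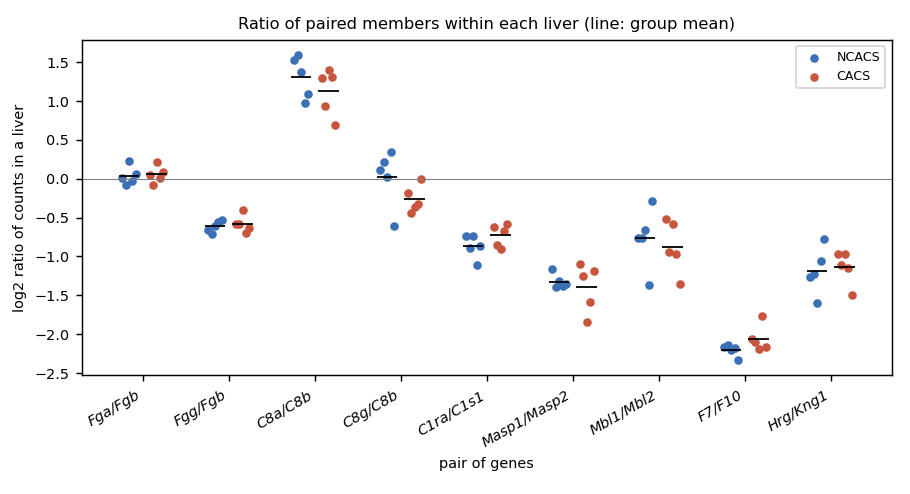
Log2 ratio of the counts of 2 genes within each liver (y axis) for 9 pairs (x axis), NCACS in blue and CACS in red, with lines at the group means. The groups overlap in each of the 9 pairs, and the Fga to Fgb ratio is near 0 in both.

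Other genes of the same pathways, listed by role, gave 0 calls by edgeR among 50 tested of 54, with 8 (16%) at an unadjusted p under 0.05 (3 higher and 5 lower in CACS livers), against 21.6% of all genes tested. DESeq2 called 4 of them, and 10% of the 13859 genes to which it gave an adjusted p. Of the 8 genes, 5 were among the 12 coagulation cofactors and vessel wall genes (41.7%). In CACS livers 3 of these were lower (F13a1, Serpina5 and Gas6) and 2 higher (Kng2 and Thbd, the gene of thrombomodulin). Thbd had a log2 fold change of 0.77 (edgeR adjusted p = 0.0904, DESeq2 adjusted p = 0.0289). Among the 11 other complement regulators, Susd4, a membrane protein that inhibits complement, was at 63.8, 43.6, 73.8, 47.2 and 77.2 CPM in NCACS mice 11 to 15. It was at 42.2, 42.3, 31.6, 39.3 and 43.5 CPM in CACS mice 16 to 20. The groups did not overlap but came close at NCACS mouse 12 and CACS mouse 20, and the log2 fold change was -0.62 (SE 0.165, edgeR adjusted p = 0.0597).

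Kng2, the second kininogen gene, was at 310.2 to 345 CPM, with a median of 332 CPM, in NCACS livers and at 353 to 541 CPM, with a median of 437 CPM, in CACS livers. All 5 CACS livers were above all 5 NCACS livers, with a log2 fold change of 0.41 (SE 0.119, edgeR adjusted p = 0.0741), while Kng1 overlapped between groups at 0.25 (edgeR adjusted p = 0.457). F13a1, the catalytic subunit of factor XIII, which platelets and macrophages make, was at 0.504, 6.55, 1.197, 0.422 and 0.556 CPM in NCACS mice 11 to 15 and at 0.115 to 0.359 CPM in CACS livers. NCACS mouse 12, also the highest in C5ar1, stood far above the other 9 livers. The log2 fold change was -2.84 (SE 0.807, edgeR adjusted p = 0.0714), or -1.36 without that liver (edgeR adjusted p = 0.113). F13a1 had only 4 to 263 counts per liver, so counting error is large in its lowest livers. The genes of vitamin K-dependent carboxylation and factor secretion (Ggcx, Vkorc1, Vkorc1l1, Lman1, Mcfd2 and Furin) were all 6 within 1.5-fold by their 95% intervals. Of the 6 platelet and megakaryocyte markers 4 were tested, and Itgb3 was called higher in CACS livers (log2 fold change 1.56, edgeR adjusted p = 0.00641). Itga2b, Gp1ba and Pf4 had log2 fold changes of 0.52, 0.53 and -0.42 and were not called (edgeR adjusted p = 0.111, 0.334 and 0.766), and Ppbp and Gp9 were below the filter. Markers of hepatocytes, sinusoidal endothelial cells, stellate cells and cholangiocytes gave 0 calls by edgeR. The 6 hepatocyte markers had log2 fold changes from -0.06 to 0.70 with a median of 0.39, 4 above 0 and 2 below. Of these, 1 was higher in CACS livers at an unadjusted edgeR p under 0.05.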

How the data were processed

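Per the labels and the submitters' processing notes, poly(A) RNA of each liver was made into stranded libraries and sequenced as single-end reads, which the authors aligned to GRCm38 with STAR 2.4.1d and counted per Ensembl gene with HTSeq 0.6.1. The deposited values are raw counts, with no normalization. The annotation release and strand setting are not given in the sources used here, so overlapping genes on opposite strands, such as Masp2 and Tardbp, which share 54.9% of the exon bases of Masp2, are uncertain. The count table holds 0 unused columns. No 2 livers of a group agreed within sampling noise (smallest chi-square per degree of freedom 50.1).

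Counts of all genes were analysed with edgeR 4.0.16 in R 4.3.3 (filterByExpr, TMM factors, quasi-likelihood test, Benjamini-Hochberg adjustment over 14143 genes, threshold 0.05). Limma 3.58.1 (voom), DESeq2 1.42.0, RLE and upper-quartile factors, raw totals, library sizes without the 10 most abundant genes, other filters and thresholds, and leaving out each mouse were the alternatives. Exact permutation tests used log2(CPM + 0.05) over 252 assignments, with a smallest two-sided p of 0.00794. Ratios added 0.5 counts to each gene. Symbols came from GENCODE M21 and lacked 1081 of the identifiers. The scripts were tested on simulated data. The 42 genes, the other lists and the markers were chosen with earlier results of these data known. Values in every liver are given for genes past the threshold, genes without overlap and the gene with the smallest p of each role. The values of C3 in every liver and the range of C6 in each group were added after they were seen. Other pathway genes are named for the 3 smallest p. Thbd, Serpina5, Gas6, Itgb3, Cd5l and the genes of vitamin K were also singled out afterwards. The labels give no batch, and the p-values set the difference between the groups against the spread between these mice. Some alleles and genes are not reported here.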

Additional observations from a re-analysis of the deposited data

Results flagged for a closer look

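A liver was singled out when the gap between the highest or lowest of 5 livers and its nearest neighbour was over 0.71 of the range of its group (Dixon's 95% critical value). In 82 examinations of the 41 genes this occurred 3 times. For independent, normally distributed values chance gives about 1 in 20 such cases. The CPM were not put on a log scale and the genes share the same livers, so the rate here can differ. F9 was high in NCACS mouse 15, at 327 CPM against 226 CPM in the next liver, and so was C8b, at 674 CPM against 447 CPM. Masp1 was high in NCACS mouse 11, at 86.1 CPM against 70.6 CPM.

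Among the other pathway genes there were 9 such cases in 99 examinations. NCACS mouse 13 was high in A2m, the gene of alpha2-macroglobulin, at 16.8 CPM against 0.0926 CPM in the next liver, in Mcfd2, at 300.9 CPM against 203 CPM, and in C1rl, at 237 CPM against 211 CPM. NCACS mouse 12 was high in F13a1, at 6.55 CPM against 1.197 CPM, and in C3ar1, the receptor of C3a, at 7.54 CPM against 2.16 CPM. NCACS mouse 14 was low in Cfp, the gene of properdin, at 10.96 CPM against 19.6 CPM. CACS mouse 17 was low in C4b, at 1067 CPM against 2447 CPM, and in Cpn2, at 413 CPM against 529 CPM. CACS mouse 18 was high in Gas6, at 41.7 CPM against 33.7 CPM. C4b shares near-identical sequence with C4a, so its level is uncertain.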

How the results depend on the processing

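The count of genes called among the 41 was 1 by edgeR, beside 538 of all 14143 genes tested. By DESeq2 it was 3 (F11, C9 and C8g), beside 1386 of all 13859 genes with an adjusted p (10%). With raw library totals it was 0, beside 406 of all 14143 genes. At an adjusted p under 0.01 it was 0, beside 34 of all 14143 genes, and at one under 0.1 it was 3, beside 1237. It ran from 0 to 1 with each mouse left out in turn. Among the other pathway genes it was 0 by edgeR, 4 by DESeq2, 4 at an adjusted p under 0.1 and 0 to 1 with a mouse left out (Susd4 without NCACS mouse 12, Kng2 without CACS mouse 17). Over all genes it ran from 178 to 519 with a mouse left out. The cause was not tested. F11 had log2 fold changes from -0.68 to -0.52 and adjusted p-values from 0.0246 to 0.0867 with a mouse left out.

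The direction held under every alternative run for 26 of the 41 genes and changed in at least one for 15, 14 of them with log2 fold changes from -0.086 to 0.10 and the other C5ar1. Vtn alone changed without a mouse left out, to 0.0075 with limma-voom and 0.0086 with raw library totals. With each mouse left out, log2 fold changes ran from -0.132 to 0.0468 for F10, from -0.141 to 0.0334 for F13b, from -0.191 to 0.118 for Fga, from -0.179 to 0.0513 for Fgb and from -0.156 to 0.0854 for Fgg. They ran from -0.0562 to 0.0386 for Proz, from -0.023 to 0.0848 for Plg, from -0.0955 to 0.0979 for Vtn, from -0.0673 to 0.165 for C2, from -0.0915 to 0.0356 for Masp1, from -0.0324 to 0.107 for Masp2 and from -0.134 to 0.0681 for Mbl1. They ran from -0.0299 to 0.342 for C3, from -0.155 to 0.0999 for C8b and from -0.479 to 0.116 for C5ar1. The differences in log2 ratio ran from -0.0161 to 0.0732 for Fga to Fgb, from -0.0113 to 0.0615 for Fgg to Fgb, from -0.146 to 0.0414 for Masp1 to Masp2, from -0.256 to 0.0149 for Mbl1 to Mbl2 and from -0.0574 to 0.148 for Hrg to Kng1.

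No paired analysis was possible because the NCACS and CACS mice share no replicate number. C5ar1 had 34 to 181 counts per liver and Cfb 150 to 598, the fewest of the 41 genes, so counting error is largest for these. F13a1 ran from -3.09 to -1.36 with each mouse left out, a range added after seeing the data.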
